A study of Mus musculus with 12 samples.

Results

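Chromatin accessibility around 9 genes of heme synthesis and erythroid iron supply was described in ATAC-seq libraries of mouse bone marrow. The genes were Alas2, Alad, Uros, Urod, Cpox, Ppox, Fech, Slc25a37 and Tfrc. A peak of the deposited consensus set was counted to a gene when its centre lay in the gene or within 10 kb of an end of it, which gave 66 of 75281 peaks. Uros had 11 of these, Alas2 2, Alad 4, Urod 5, Cpox 7, Ppox 7, Fech 9, Slc25a37 7 and Tfrc 14. All 66 held enough counts to be tested.

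The mice were NZO/HILtJ, an inbred line known for obesity and for diabetes in males, with no genetic change or treatment named in the labels. There were 6 libraries from mice of 18 months and 6 from mice of 3 months, with 3 females and 3 males at each age. ATAC-seq marks open chromatin by letting the Tn5 transposase cut and tag DNA that nucleosomes do not cover, so a higher count means a more accessible region. Values are given as CPM, counts scaled to the total in peaks and to TMM factors, which bring libraries to a common scale.

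Per the sample labels the tissue is bone marrow, whereas the protocol text describes a sort for CD3e+ CD8+ T cells. Of a list of 16 T cell genes 12 had a peak at their start or at a gene end, and Cd3e, Cd8a, Cd8b1 and Bcl11b had none, while each of 20 erythroid genes had one. Of other lists, 5 of 8 stem and progenitor, 4 of 7 NK and 6 of 8 megakaryocyte genes had one. So had 14 of 15 neutrophil and 10 of 10 B cell genes, and these counts do not settle the cell type. The libraries are called bone marrow here after their labels. In such bulk libraries fewer cells of a type and less open chromatin per cell cannot be told apart. The libraries held 7668099 to 12756647 counts in peaks. They came from 6 sequencing runs, of which 0 held both ages, so age and run cannot be told apart. Single libraries are named by the BM number of their labels. The labels do not state that each number is a separate mouse, so p-values measure the spread between these samples, which may be technical.

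Heme is built in steps that begin and end in the mitochondrion and pass through the cytosol between. Red cell precursors make most of the heme of the body, for hemoglobin, and they use an enzyme of their own, ALAS2, for the first and rate-limiting step. The later enzymes, ALAD, UROS, UROD, CPOX, PPOX and FECH, act in nearly every cell at a low level and are raised during red cell maturation. Iron reaches these cells bound to transferrin through the transferrin receptor, TFRC, and enters the mitochondrion through mitoferrin 1, the product of Slc25a37. GATA1, the main erythroid transcription factor, binds the letters GATA and is known to act on several of these genes. Uros is known for a pair of promoters, a general one at the outer end of the gene and an erythroid one further in.

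The RefSeq promoter table for GRCm38.p6 held 10 starts for 7 of the 9 genes. The 250 bases before each start were searched for GATAA on either strand. A match was present in 3 of the 10 windows, those of Alas2, Cpox and the inner start of Uros, and in 7418 of 32851 promoter windows of all genes (22.6%). These 3 are shown because the peaks at or nearest to them had the 3 lowest log2 fold changes with age among peaks with such a window. The window of Urod is shown as a contrast without a match, and its peak changed least of the 9 gene starts (-0.31). Peaks at starts without a match fell at Tfrc (-0.69) and Alad (-0.63) too. The windows were chosen by these values, so whether a match goes with the change was not tested. The Alas2 window itself lies outside any peak. Each is written 5′ to 3′ along its gene and ends at the base before the start, except that of Urod, of which 227 bases are given. Capitals mark the match, which reads as TTATC because in each window it lies on the opposite strand.
Alas2, chrX:150547167-150547416, forward strand: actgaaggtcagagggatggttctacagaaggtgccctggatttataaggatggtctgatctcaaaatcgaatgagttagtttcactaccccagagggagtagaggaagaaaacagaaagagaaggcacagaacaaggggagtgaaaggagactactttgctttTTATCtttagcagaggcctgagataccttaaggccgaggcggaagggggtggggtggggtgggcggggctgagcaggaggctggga
Cpox, chr16:58669958-58670207, forward strand: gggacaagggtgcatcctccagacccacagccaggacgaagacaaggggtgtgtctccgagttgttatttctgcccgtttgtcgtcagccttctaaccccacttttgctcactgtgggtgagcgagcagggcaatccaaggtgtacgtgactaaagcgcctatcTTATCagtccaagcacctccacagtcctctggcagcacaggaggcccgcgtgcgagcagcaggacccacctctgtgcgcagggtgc
Uros inner start, chr7:133702501-133702750, reverse strand: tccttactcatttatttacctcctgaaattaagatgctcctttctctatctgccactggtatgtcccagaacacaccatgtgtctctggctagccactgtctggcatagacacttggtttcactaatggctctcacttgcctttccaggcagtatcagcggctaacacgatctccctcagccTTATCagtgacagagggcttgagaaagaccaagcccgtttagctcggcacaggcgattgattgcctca
Urod, chr4:116994437-116994663, reverse strand: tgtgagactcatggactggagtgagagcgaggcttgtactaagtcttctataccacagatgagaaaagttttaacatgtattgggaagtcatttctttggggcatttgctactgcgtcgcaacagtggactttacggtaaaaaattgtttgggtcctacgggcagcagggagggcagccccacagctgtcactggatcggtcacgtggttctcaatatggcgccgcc
The match began 86 bases before the start in Alas2, 86 in Cpox and 68 in Uros. The windows differed in base composition too. GC content was 51.2% in Alas2, 58.8% in Cpox and 48.8% at the inner start of Uros. In the windows without a match it was 50.8% in Urod, 53.6% in Ppox, 59.6% at the outer start of Uros, 70.4% and 58.4% at the 2 starts of Alad and 64.8% and 68.0% at those of Tfrc. The ranges overlapped. The median of all promoter windows was 52.4%. A match describes these letters, and binding was not measured.

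At 18 months accessibility was lower at 32 of the 66 peaks and higher at 0 (edgeR quasi-likelihood test with sex as covariate, adjusted p under 0.05 over 75164 tested peaks). Of all tested peaks, 21% passed in either direction and 11.6% were lower. The median log2 fold change, 18 over 3 months, was -0.36 over the 66 peaks and 0.02 over all tested peaks. Estimates were negative at 61 of the 66. The 5 positive estimates did not pass. CPM did not overlap between the ages at 19 of the 66 peaks, against 7.24% of all tested peaks (5.04% with the 18-month libraries below). The 9 peaks standing for the gene starts were all among the 32.

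**Figure D1:**
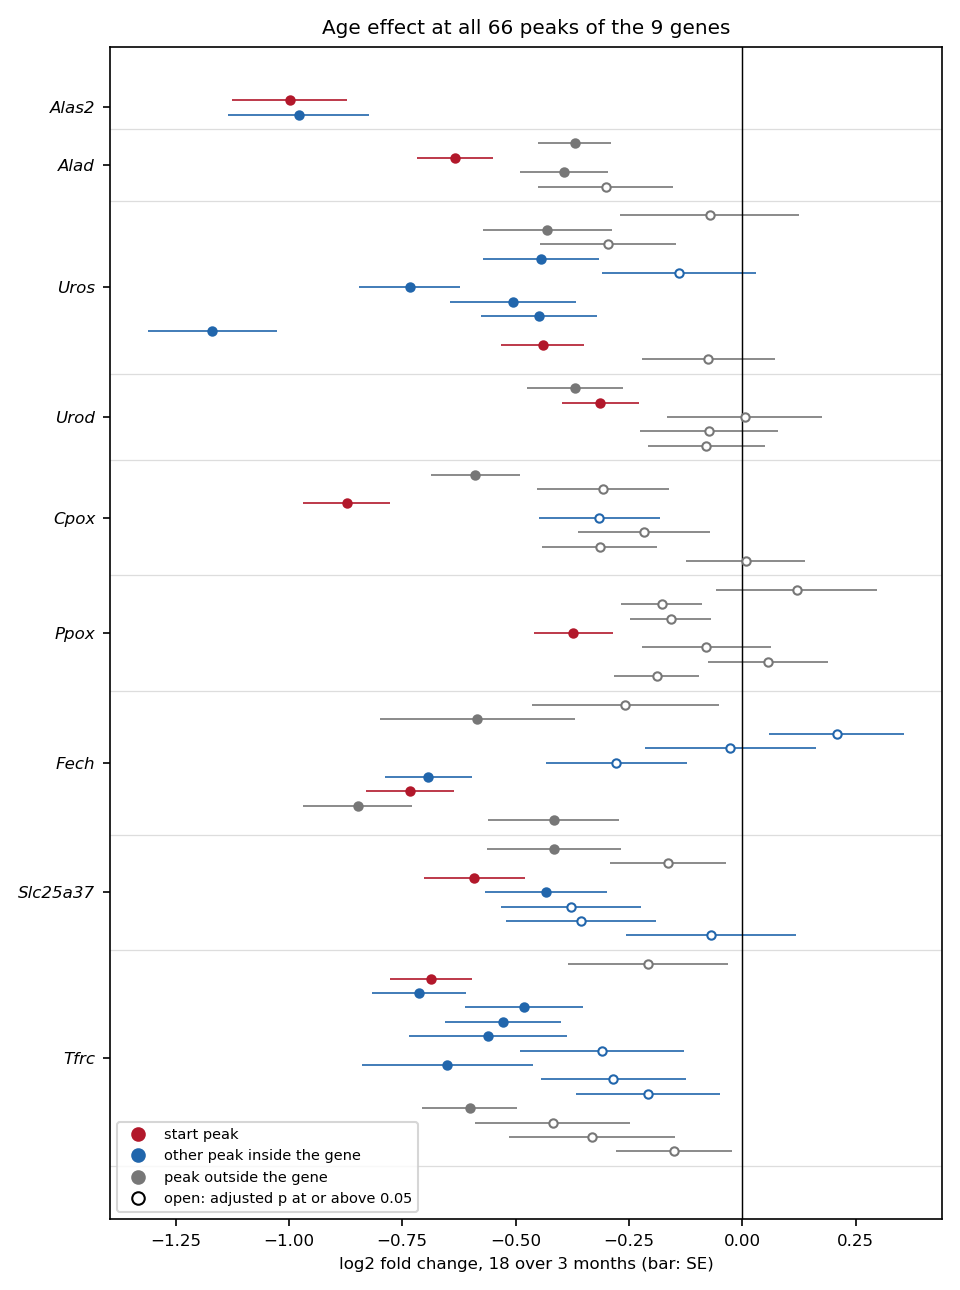
Log2 fold change in accessibility, 18 over 3 months, with its standard error, for each of the 66 peaks, ordered by position within each gene. Filled points passed an edgeR adjusted p of 0.05. The 32 filled points lie left of 0, and the 9 start peaks are all filled.

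A start peak is the most abundant peak that covers a RefSeq start of the gene. For Alas2 no peak covered the start, and the nearest peak stands for it. For Fech and Slc25a37 the tables used here give no strand, so the most abundant peak within 3 kb of either gene end was taken. At Alas2, Fech and Slc25a37 the term start peak therefore names a stand-in and not a known promoter.

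Alas2, the erythroid first enzyme, had 2 peaks, and both were lower at 18 months. The peak nearest to its start, chrX:150548973-150550415, is centred 2277 bp inside the gene. It stood at 6.59, 9.80 and 15.6 CPM (lowest, median and highest of 6 libraries) at 18 months and at 16.0, 21.0 and 25.1 CPM at 3 months. The ages did not overlap, and every 18-month library was below every 3-month library. The log2 fold change was -0.998 with a standard error (SE) of 0.126 (edgeR adjusted p = 3.84e-08), which left 50.1% of the 3-month level. The second peak, chrX:150564547-150565367, lies deep in the gene, with its centre 17540 bp from the start. It stood at 3.85, 5.31 and 10.1 CPM at 18 months and at 8.67, 11.8 and 13.5 CPM at 3 months. Its change was -0.98 (SE 0.155, edgeR adjusted p = 4.57e-06), and here the ages overlapped. Another gene model, that of Apex2, also spans Alas2, so position alone does not assign these peaks to 1 gene.

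**Figure D2:**
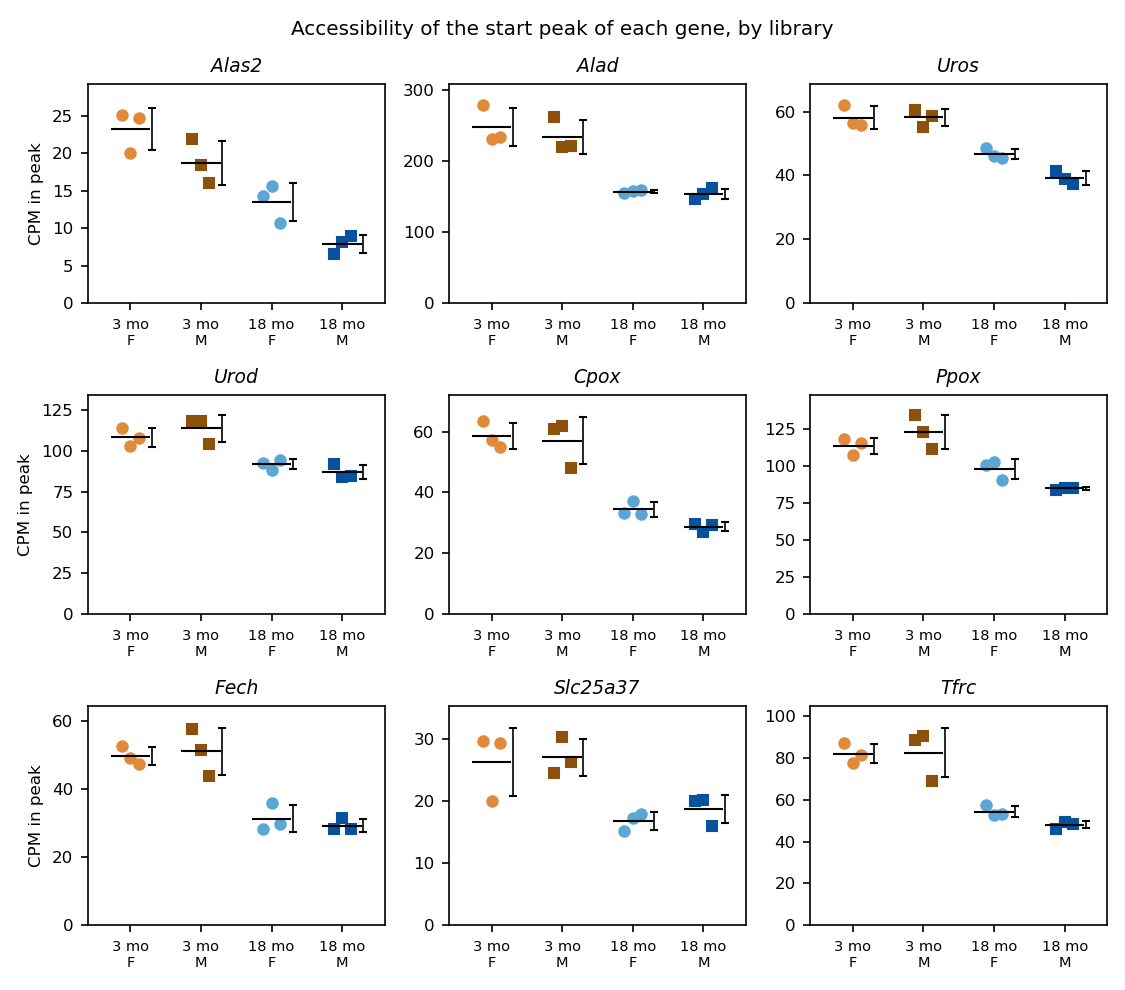
CPM in the start peak of each of the 9 genes, with 1 point per library (3 per group), the group mean as a line and the standard deviation as a bar. In 8 of the 9 panels the 18-month points lie below every 3-month point, and in Slc25a37 they overlap. At Alas2, Fech and Slc25a37 the peak is a stand-in and not a known start.

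ALAD condenses the product of the first step to the pyrrole porphobilinogen in the cytosol. The Alad start peak, chr4:62514873-62523908, is 9036 bp wide and covers both annotated starts. It stood at 146.7, 156.3 and 161.9 CPM at 18 months and at 220.4, 232.6 and 278.9 CPM at 3 months. The ages did not overlap, and the 18-month libraries lay close together. The log2 fold change was -0.63 (SE 0.0831, edgeR adjusted p = 8.2e-08). A neighbouring peak of 19447 bp, the widest of the 66, covers the start of Hdhd3 and changed by -0.37 (edgeR adjusted p = 6.30e-04). That call was lost with offsets smoothed on abundance (-0.09, adjusted p = 0.391) or on peak width (-0.09, adjusted p = 0.357), and with male libraries only (-0.25, adjusted p = 0.225). Another, over the starts of Pole3 and 4933430I17Rik, changed by -0.39 (edgeR adjusted p = 0.00246), a call lost with female libraries only (-0.26, adjusted p = 0.0958).

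UROS closes the linear tetrapyrrole into a ring. Of the 11 peaks of Uros, 7 were lower at 18 months and none of the others passed. The outer start peak, chr7:133707444-133710548, also covers the start of Bccip. It stood at 37.3, 43.5 and 48.5 CPM at 18 months and at 55.2, 57.5 and 62.1 CPM at 3 months, with no overlap. Its log2 fold change was -0.44 (SE 0.0910, edgeR adjusted p = 3.18e-04).

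The peak over the inner Uros start, chr7:133702194-133702892, had the lowest log2 fold change of the 66. It stood at 4.58, 7.81 and 10.3 CPM at 18 months and at 12.7, 18.1 and 20.6 CPM at 3 months, again with no overlap. The change was -1.17 (SE 0.143, edgeR adjusted p = 1.72e-08), which left 44.5% of the 3-month level. The inner peak was then set against the outer one within each library, a comparison chosen after the values were seen and given without a test. Its count was 11.04% to 24.6% of the outer count at 18 months (18.0% ± 4.80, SD, n = 6). At 3 months it was 21.7% to 34.4% (29.7% ± 4.93, SD, n = 6). The ranges overlapped: 1 male of 3 months fell below the highest male of 18 months. Further along, chr7:133697343-133698778 stood at 12.2, 13.0 and 14.5 CPM at 18 months and at 18.1, 22.1 and 24.8 CPM at 3 months. This peak changed by -0.73 (edgeR adjusted p = 2.08e-06), without overlap.

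**Figure D3:**
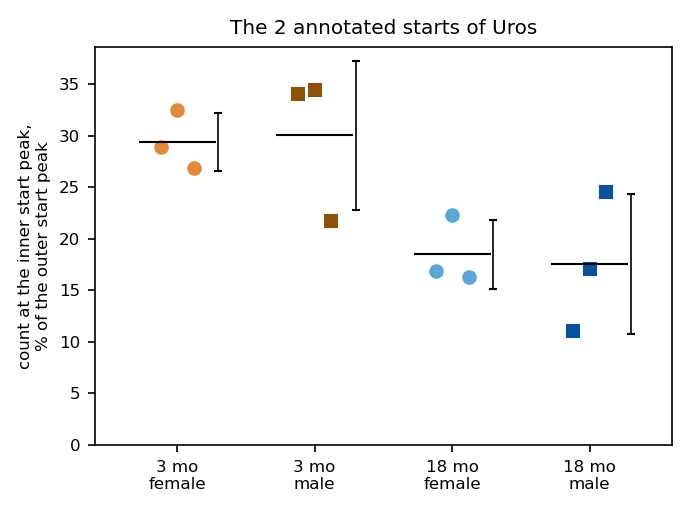
Count in the peak over the inner Uros start as a percentage of the count in the peak over the outer start, with 1 point per library, the mean of 3 as a line and the standard deviation as a bar. The 18-month libraries lie between 11.04% and 24.6% and the 3-month libraries between 21.7% and 34.4%.

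UROD removes carboxyl groups from the ring. The Urod start peak, chr4:116990499-116996983, also covers the start of Hectd3. It stood at 84.2, 90.3 and 94.6 CPM at 18 months and at 102.9, 111.1 and 118.6 CPM at 3 months, without overlap. Its log2 fold change of -0.31 (SE 0.0849, edgeR adjusted p = 0.0059) was the smallest of the 9. It no longer passed with abundance offsets (-0.07, adjusted p = 0.490) or width offsets (-0.06, adjusted p = 0.582), nor with female libraries only (-0.24, adjusted p = 0.104) or male libraries only (-0.38, adjusted p = 0.0700). The peak at chr4:116986356-116989779, on the other side of the gene, changed by -0.37 (edgeR adjusted p = 0.00931) and was lost under the same offsets (-0.23, adjusted p = 0.121, and -0.16, adjusted p = 0.335) and with male libraries only (-0.22, adjusted p = 0.435). The remaining 3 peaks of Urod had estimates between -0.08 and 0.00.

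CPOX and PPOX carry out the next oxidations at the mitochondrion. At Cpox the start peak, chr16:58669006-58670958, stood at 27.1, 31.3 and 37.2 CPM at 18 months and at 48.1, 59.1 and 63.4 CPM at 3 months. The ages were well apart. Its log2 fold change was -0.87 (SE 0.0958), with the smallest edgeR adjusted p among the 66 peaks, 1.21e-09. Upstream of the gene, chr16:58660408-58663777 changed by -0.59 (edgeR adjusted p = 1.06e-05). The peak inside Cpox and the 4 other peaks outside it did not pass.

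At Ppox 1 of 7 peaks passed, the start peak chr1:171277688-171282325. It stood at 84.0, 87.8 and 103.0 CPM at 18 months and at 107.6, 116.6 and 134.1 CPM at 3 months. These ranges did not overlap. The log2 fold change of -0.37 (SE 0.0877, edgeR adjusted p = 0.0015) no longer passed with abundance offsets (-0.13, adjusted p = 0.127) or width offsets (-0.14, adjusted p = 0.149), nor with female libraries only (-0.21, adjusted p = 0.150). Its most abundant neighbour covers the start of B4galt3 and had an estimate of -0.18 (edgeR adjusted p = 0.150).

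FECH inserts iron into the finished ring, and 5 of the 9 peaks of Fech were lower. The Fech end peak, chr18:64487650-64490204, stood at 28.1, 29.04 and 35.9 CPM at 18 months and at 43.9, 50.4 and 57.7 CPM at 3 months. There was no overlap, and the change was -0.73 (SE 0.0971, edgeR adjusted p = 1.07e-07). Both neighbours moved with it. The peak inside the gene, chr18:64482011-64486960, changed by -0.69 (edgeR adjusted p = 2.77e-07), and the one outside, chr18:64490641-64491924, by -0.85 (edgeR adjusted p = 4.61e-07). Deeper in Fech 3 further peaks did not pass, and 1 of them had the highest estimate of the 66, 0.21 (edgeR adjusted p = 0.338).

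On the side of iron supply, Tfrc had 14 peaks, of which 7 were lower. Its start peak, chr16:32607479-32610895, covers both annotated starts. It stood at 46.1, 51.1 and 57.5 CPM at 18 months and at 69.0, 84.2 and 90.6 CPM at 3 months. No 18-month library reached the lowest 3-month library. The log2 fold change was -0.69 (SE 0.0910, edgeR adjusted p = 1.07e-07). The next peak inside the gene, chr16:32611091-32613632, changed by -0.71 (edgeR adjusted p = 7.15e-07), and estimates were negative at each of the 14.

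Slc25a37 had 7 peaks, of which 3 were lower. Its end peak, chr14:69240060-69242155, stood at 15.1, 17.6 and 20.2 CPM at 18 months and at 20.0, 27.8 and 30.4 CPM at 3 months. Among the peaks standing for gene starts this was the 1 with overlap, through a single low female of 3 months. Its log2 fold change was -0.59 (SE 0.111, edgeR adjusted p = 8.16e-05). Inside the gene, chr14:69244679-69245737 changed by -0.43 (edgeR adjusted p = 0.0161). That call was lost without 18-month male BM-40 (-0.37, adjusted p = 0.0595) or without 3-month male BM-252 (-0.34, adjusted p = 0.0745), and with female libraries only the estimate was -0.23 (adjusted p = 0.410). The most abundant peak beyond the gene end had an estimate of -0.16 (edgeR adjusted p = 0.391). The other peak beyond that end, chr14:69235726-69236784, changed by -0.41 (edgeR adjusted p = 0.0377) and is named after its values were seen. The gene runs to 69285544, and none of the peaks analysed here lay between 69254116 and that end or within 10 kb beyond it. The end peak could therefore come from the low-coordinate end only, and whether the gene starts at that end is not given in the sources used here.

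**Figure D4:**
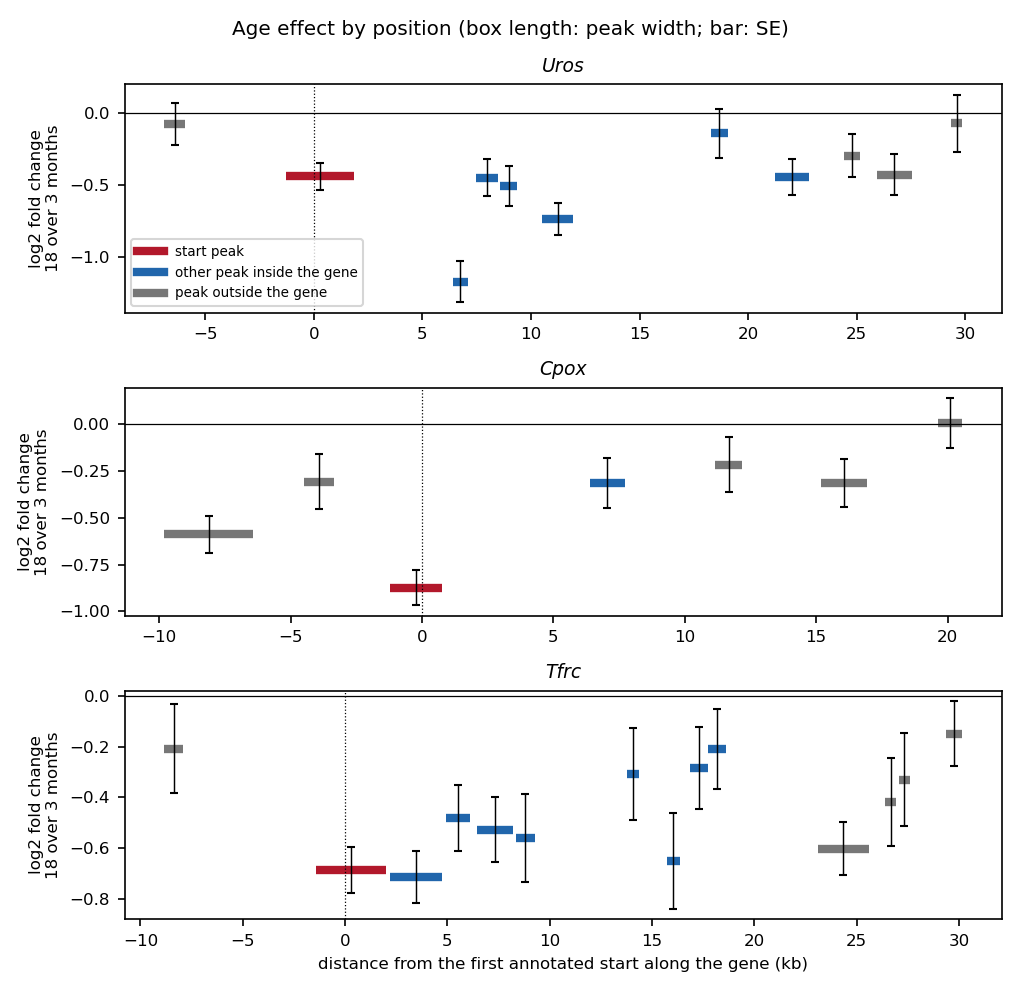
Log2 fold change with age (vertical axis, bars show the standard error) against distance from the first annotated start along the gene in kb, for Uros, Cpox and Tfrc, with box length showing peak width. In Cpox the start peak is lowest at -0.87, in Uros the lowest is the inner peak at -1.17, and in Tfrc the start peak (-0.69) and the next peak (-0.71) are close.

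Start peaks were set beside the other peaks of the genes. All 9 start peaks were lower, with a median log2 fold change of -0.63. Of 24 other peaks inside the genes 13 were lower, with a median of -0.44, and of 33 outside 10 were lower, with a median of -0.26. The gap between start and inside peaks depended on the scaling. With abundance offsets the medians were -0.47 at starts, -0.45 inside and -0.23 outside, and with width offsets -0.43, -0.41 and -0.20. The same order of classes was present over all tested peaks, at higher values. Start peaks of protein-coding genes had a median of -0.14, with 26% of 12984 lower and 4.41% higher. Peaks inside genes had a median of 0.02 with 9.42% lower, and those outside 0.12 with 7.35% lower. Over all tested peaks outside means outside every protein-coding gene, whereas for the 9 genes it means outside that gene only. Among the 33 outside peaks, 14 lie in or cover the start of another gene, and these had a median of -0.12 with 3 lower. The other 19 lie between genes and had a median of -0.31 with 7 lower.

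The start peaks of the 2 erythroid-specific genes, Alas2 and Slc25a37, had a median of -0.79, and those of the 7 genes in general use had a median of -0.63. Neither peak of this pair covers a known start of its gene, and with 2 genes on one side no test was made. Uros counts among the 7 by its outer start peak (-0.44). The peak over its inner start (-1.17) was counted as a peak inside the gene and is in neither group. The ranges overlapped, since Cpox (-0.87), Fech (-0.73) and Tfrc (-0.69) in general use were lower than Slc25a37 (-0.59). With abundance offsets the medians were -0.75 for the 2 genes and -0.36 for the 7, and with width offsets -0.68 and -0.37. The difference between them was not tested. Level per length, as mean CPM per kb of peak, was highest in Cpox at 3 months (29.6) and lowest in Slc25a37 (12.7). At 18 months it was highest in Ppox (19.7) and lowest in Alas2 (7.42).

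A list of 14 housekeeping genes gave a reference for promoters in general use, among them Actb (cytoskeletal actin), Gapdh (a glycolytic enzyme) and B2m (a chain of the class I histocompatibility molecule). Of their start peaks 0 passed (edgeR, smallest adjusted p = 0.113), and 1 had an unadjusted p under 0.05. Their median log2 fold change was -0.08. This sign depends on the scaling, at 0.14 with 4 higher under abundance offsets and 0.14 with 3 higher under width offsets. Under those offsets the median of the 9 start peaks moved too, from -0.63 to -0.47 and -0.43, and 7 of the 9 still passed as lower.

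Within females 20 of the 66 peaks passed, all lower, where 11.9% of all tested peaks passed and 6.2% were lower. Within males 21 passed, all lower, where 11.4% of all passed and 8.18% were lower. Start peaks were lower at 6 of the 9 genes in females and at 9 of 9 in males, where 9.77% and 24.3% of the start peaks of protein-coding genes were. In females Uros (-0.31), Urod (-0.24) and Ppox (-0.21) did not pass. With each sex fitted alone 7 passed in females, where Uros was added (edgeR adjusted p = 0.0388), and 8 in males, where Urod was lost (edgeR adjusted p = 0.0700). The 18-month females were all of run 14 and the 18-month males all of run 15, so sex and run cannot be told apart at 18 months. The test of the difference between the sexes passed at 0 of 66 peaks (edgeR and DESeq2), where 0.00532% of all peaks passed. It had an unadjusted p under 0.05 at 5 of the 66, where 10% of all peaks did.

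Alas2 lies on X, and its start peak differed in level between the groups. At 3 months it averaged 23.3 ± 2.78 CPM in females and 18.8 ± 2.94 CPM in males, and at 18 months 13.6 ± 2.56 CPM in females and 7.87 ± 1.18 CPM in males (SD over 3 libraries in each case). The sexes overlapped at 3 months and not at 18 months, where sex and run coincide. At 3 months a female and a male shared a run in 2 cases. In run 29 the female stood at 20.1 CPM and the male at 21.9 CPM, and in run 31 the female stood at 24.7 CPM and the male at 16.0 CPM, so the order of the sexes differed between these runs. The age effect was -0.78 in females and -1.26 in males. Their difference of -0.48 (SE 0.241) did not pass (edgeR adjusted p = 0.499). Over both ages the level in males was lower by a log2 fold change of -0.53 (SE 0.126, edgeR adjusted p = 0.0564). This passed without 3-month female BM-243 (adjusted p = 0.0288), 3-month male BM-251 (0.0227) or 3-month male BM-253 (0.00832), and with abundance offsets (0.0386). On X as a whole 104 of 1323 peaks were lower in males, and the median sex effect was -0.32. Sex passed at 0 of the 66 peaks (edgeR and DESeq2), with 3 at an unadjusted p under 0.05, where 0.162% and 7.57% of all peaks did.

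Of 40 further genes of heme and iron handling 39 had a start peak. At 18 months 25 of them were lower and 2 higher, with a median of -0.37, where 26% of the start peaks of protein-coding genes were lower and 4.41% higher. With abundance offsets the numbers were 19 and 3, and with width offsets 18 and 2. Groups by role were formed after the values were seen and take in most of the list. Mitochondrial carriers and factors had 7 of 7 lower, between -0.69 and -0.36. Among them Abcb6, a porphyrin transporter, fell from 49.7, 53.6 and 62.7 CPM at 3 months to 32.3, 34.1 and 34.7 CPM at 18 months (-0.69, edgeR adjusted p = 1.23e-07). Of 4 genes of iron-sulfur cluster assembly 3 were lower, and of 2 of heme sensing 2. Of 8 genes of iron storage and export 4 were lower, and of 2 iron sensors 1. Uptake and endosome genes had 3 of 6 lower and 1 higher, and those of heme breakdown 1 of 4 lower and 1 higher. Eif2ak1, the kinase that slows translation when heme is short, had the lowest value of the list at -0.70 (edgeR adjusted p = 3.26e-07). Slc11a2, which moves iron out of endosomes, changed by -0.67 (edgeR adjusted p = 1.15e-05).

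Alas1, the general form of the first enzyme, had an estimate of 0.12 (edgeR adjusted p = 0.429). It is named here, after its values were seen, beside the fall at Alas2. For the ferritin chains the values were -0.33 at Fth1 (edgeR adjusted p = 0.0160) and 0.06 at Ftl1 (0.711). The iron sensors gave -0.29 at Aco1 (edgeR adjusted p = 0.0178) and 0.01 at Ireb2 (0.951).

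The 2 higher genes were Trf, which encodes transferrin, and Hmox1, which encodes the inducible heme oxygenase that breaks heme down. Trf stood at 11.6, 15.02 and 16.8 CPM at 18 months and at 6.64, 8.58 and 14.5 CPM at 3 months (0.61, edgeR adjusted p = 0.00157). Hmox1 stood at 11.5, 16.3 and 19.9 CPM at 18 months and at 7.29, 11.8 and 18.2 CPM at 3 months (0.44, edgeR adjusted p = 0.0205). Both overlapped between the ages, and both are gene-end peaks. The call at Hmox1 was lost with width offsets (0.41, adjusted p = 0.0537). It was also lost without 18-month female BM-35 (0.38, adjusted p = 0.0683), 18-month male BM-40 (0.38, 0.0754), 3-month female BM-245 (0.42, 0.0550) or 3-month female BM-244 (0.32, 0.100).

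**Figure D5:**
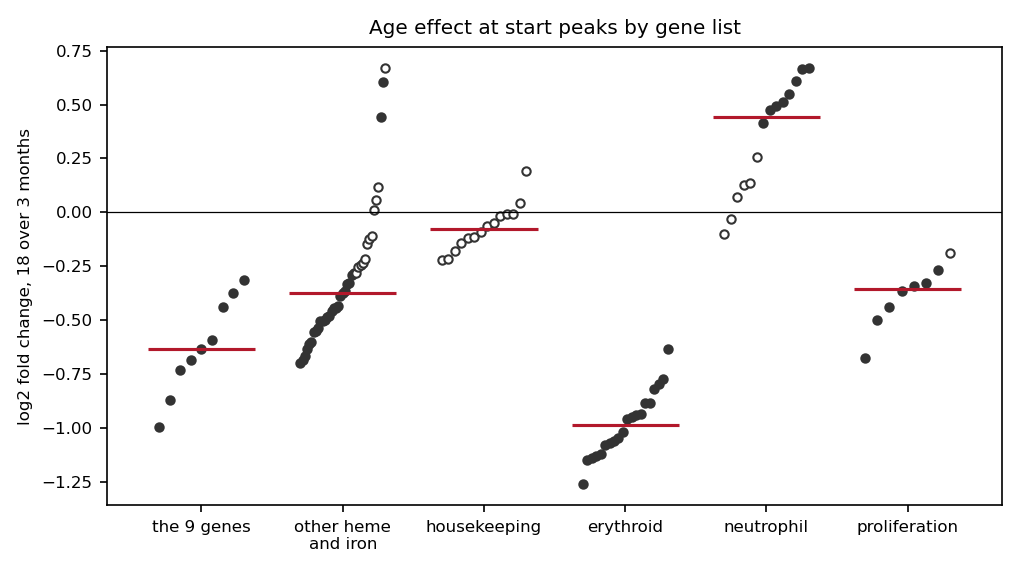
Log2 fold change with age at start peaks (1 point per gene, lists on the horizontal axis, median as a line), with filled points past an edgeR adjusted p of 0.05. The 9 genes have a median of -0.63, between the erythroid list at -0.99 and the housekeeping list at -0.08, whose sign changes with the scaling.

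Markers of cell types moved with age as well. All 20 of 20 erythroid markers, such as globin, spectrin and glycophorin genes, were lower at 18 months, with a median of -0.99 and values between -1.26 and -0.63. Their summed level was 453 to 507 CPM at 18 months and 834 to 1094 CPM at 3 months. Of the neutrophil list 8 of 14 genes with a start peak were higher, with a median of 0.44. Its summed level was 310 to 372 CPM at 18 months and 216 to 381 CPM at 3 months, where the 381 belonged to male BM-253. Of 8 proliferation genes 7 were lower, with a median of -0.36, and 3 were lower under abundance or width offsets. These counts stand against 26% lower and 4.41% higher among the start peaks of protein-coding genes.

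Of 9 monocyte and macrophage genes 4 were higher, but 1 without 18-month female BM-36 and 2 without 18-month male BM-40 or 3-month female BM-244, or when a peak at either gene end was allowed for every gene. T cell genes gave 1 higher and 1 lower of 11 peaks, with sums of 144 to 160 CPM at 18 months and 143 to 170 CPM at 3 months. One of these 2 calls was lost without 18-month females BM-35 or BM-36, 18-month males BM-39 or BM-40, 3-month females BM-244 or BM-245, or 3-month male BM-251. It was also lost with DESeq2 size factors, with abundance offsets or with no low-count filter, and width offsets left 0 calls. The lists for B cells, NK cells, megakaryocytes, eosinophils and mast cells, and stem and progenitor cells had 0 or 1 call each, and at most 2 under any of the alternatives run. The part of these lists in the result at the 9 genes was not tested.

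The genes whose start peaks followed that of Alas2 most closely were ranked by the root mean square difference of mean-centred log2 CPM over the 12 libraries, among 12983 genes. The nearest were Garem1 (0.193), Pcyt1b (0.195), Arhgef12 (0.218), Ank (0.227) and Specc1 (0.228). By this measure Cpox came closest among the other 8 genes, at rank 23. Tfrc had rank 191, Fech 260, Alad 523, Uros 1139, Ppox 1690, Slc25a37 3763 and Urod 3868. The measure reads the age difference and the sex difference at Alas2 as well as the variation between libraries. With group means taken out and Spearman correlation in its place, 0 of the 5 nearest were the same, and the order of the 8 genes was another one. Ppox then came closest, at rank 65, followed by Alad at 2731, Tfrc at 3207, Fech at 3273, Cpox at 4667, Uros at 8882, Urod at 9512 and Slc25a37 at 10858.

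At the edge of the 10 kb rule, the outermost peak of Cpox, chr16:58689859-58690757, lay 9917 bp from the gene and had an estimate of 0.01. Outermost peaks of the other genes had estimates from -0.41 at Slc25a37 to 0.12 at Ppox, and Alas2 had no peak outside it. Just beyond the rule, a peak 10574 bp from Urod, chr4:117004804-117005217, had an estimate of -0.17. Peaks 10672 bp from Fech and 10799 bp from Tfrc had -0.21 and -0.09. A peak 11184 bp from Ppox, chr1:171291870-171292885, had 0.26. A peak 11434 bp from Cpox on the other side, chr16:58658368-58659179, had -0.40, and so had one further out, 17710 bp from Alas2, chrX:150587812-150588852. These values describe the edge of the rule only.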

How the data were processed

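ATAC-seq was measured in 12 bone marrow libraries, and their groups and replicate numbers were taken from the labels. The authors deposited read counts per consensus peak, whole numbers with no normalization. The submitters' processing notes name mm10, Trimmomatic, BWA, MACS2, DiffBind and edgeR, with no roles or versions. Removal of duplicates, shift of read ends to the cut site and the consensus rule are not given in the sources used here.

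Genes and promoters came from RefSeq tables on GRCm38.p6. Exons and introns were not used. Testing was limited to peaks that passed a CPM of 1 in 2 or more libraries, with edgeR 4.0.16 in R 4.3.3 (TMM factors, glmQLFit and glmQLFTest, age and sex additive, or 4 group means for effects within a sex and the interaction), with Benjamini-Hochberg adjustment over 75164 peaks at 0.05. Tested on simulated counts for all 75281 peaks with planted age effects, the fit called 50 of 50 rises and 49 of 50 falls of 1 on the log2 scale. At 0.6 it called 23 and 22 of 50, and 12 of its 156 calls were false. The simulated peaks shared a single dispersion, few of them changed, and there was no sex or run effect. These numbers therefore describe that setting and not the spread of the real libraries. Replicates were compared pairwise: the chi-square per degree of freedom was 2.17 to 6.08, and 0 pairs held identical values. A count of 3 came to 0.235 to 0.391 CPM, which covers counting error only.

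The members and lists were chosen with earlier results of these data known. For each gene the start peak, the most abundant other peak and the called peak with the largest change are named, and for the further heme and iron genes the 3 highest and 3 lowest called, or as many as passed in a direction. The marker lists are given as counts, and the housekeeping list had no called gene. Alternatives were DESeq2 1.42.0, other scalings (DESeq2 size factors, total counts, offsets smoothed on abundance or width with a span of 0.3), other filters, each library left out, each sex alone and a window of 2 kb.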

Additional observations from a re-analysis of the deposited data

Results flagged for a closer look

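Of 44 groups of 6 libraries examined at the named peaks, 2 held a library far from the others. Chance gives such a library in about 1 in 20 groups. At the Urod peak chr4:116986356-116989779, male BM-253 of 3 months stood at 26.6 CPM and the next library at 37.4 CPM, a gap of 0.733 of the range, above the 95% limit of Dixon's test. At the Cpox peak chr16:58660408-58663777, female BM-245 of 3 months stood at 45.7 CPM and the next library at 37.7 CPM, a gap of 0.771 of the range.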

How the results depend on the processing

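Each of the 22 named peaks of the 9 genes was refitted under 22 alternatives. Of the 484 values 465 kept their direction and their side of the threshold and 17 lost the call. The other 2 belong to the uncalled peak beside Ppox over the start of B4galt3, whose estimate of -0.18 became 0.0316 with abundance offsets and 0.0488 with width offsets, still uncalled. The count of 32 lower peaks ran from 29 to 38 when a library was left out, with 38 without 3-month male BM-253, and was 18 with male libraries only. It was 28 with total counts, 30 with abundance offsets, 26 with width offsets and 32 with DESeq2, and none of these held a higher peak. Within males the count of 21 was 13 with width offsets. The median of the 9 start peaks moved to -0.47 with abundance offsets and -0.43 with width offsets, and that of the 7 genes in general use to -0.36 and -0.37. The housekeeping list had 4 and 3 calls under these offsets, and 0 to 1 when a library was left out, with 1 without 18-month female BM-36. The sex effect had 1 call with abundance offsets, and 0 to 1 when a library was left out. With residual Spearman correlation 0 of the 5 genes nearest to Alas2 remained. Total counts moved the median of all peaks from 0.02 to 0.10. The 9 start peaks had a median width of 3105 bp, against 706 bp for all peaks. The cause of these changes was not tested. The groups share no replicate numbers, so no replicate block was fitted, and run was not used as a block.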
